A study of Mus musculus with 61 samples.

Results

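The step from the early to the mid zygote was measured as 3 libraries of mouse embryos labelled from 6 to 12 hours post insemination (6-12hpi) against 3 libraries labelled from 0 to 6 hours (0-6hpi), with every gene of the table taken. These are 6 of the 30 libraries of MII oocytes and 9 embryo windows, and of 61 samples in the series. Each library holds 10 embryos. All embryos of both groups carry the wild-type genotype label, came from eggs of superovulated females fertilised in vitro, and were labelled for 6 h with 2 mM 4-thiouridine (4SU), a uridine analogue that enters newly made RNA. In SLAM-seq, alkylation of 4SU before reverse transcription lets new RNA be read as T-to-C changes. The groups differ in handling as well as in age, which cannot be told apart here: for 0-6hpi, sperm were capacitated and mixed with cumulus-enclosed eggs in medium with 4SU and the zygotes then moved to KSOM with 4SU, whereas for 6-12hpi labelling began in KSOM after insemination. Strain, ages and whether the 3 libraries of a group came from separate inseminations are not given in the sources used here, so the p-values reflect only variation among these libraries.

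A mouse egg is ovulated at metaphase of the second meiotic division with a store of maternal mRNA, and transcription is largely silent. Fertilisation ends the arrest, and stored mRNAs are then destroyed or, through longer poly(A) tails, recruited for translation. In the zygote the pronuclei form, DNA is replicated and a minor wave of transcription starts before the main activation of the embryonic genome in the 2-cell embryo. The libraries were primed with oligo-dT, and the sources used here do not say whether the deposited counts are restricted to reads with T-to-C changes. A change in the amount of an mRNA, in the length of its poly(A) tail and in its synthesis therefore cannot be told apart, and neither can RNA from fewer cells and less RNA per cell. Levels are in CPM, the reads of a gene scaled to one fixed library total after TMM normalisation, so they are shares of the counted RNA and are compared between libraries, not between genes.

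The 6 libraries held 10216080 to 13301570 counted reads, with reads in 15642 to 16630 genes. Libraries of a group correlated at r = 0.985 to 0.988 across genes on the log2 CPM scale, and each pair differed by more than counting error (chi-square at least 4.39 per degree of freedom). All 10 markers of the oocyte and zygote, among them Padi6, Zp3 and Zar1, had over 100 reads in each library. Of 17 cumulus and granulosa markers only Cyp19a1 reached 100 reads (720 to 1254), their summed level was 92.9 to 111 CPM at 0-6hpi and 81.3 to 104 CPM at 6-12hpi, and Ptx3 and Tnfaip6 had at most 1 read in a library. With Cyp19a1, Col4a1 (13 to 41 reads), Star (3 to 18), Has2 (4 to 12) and Cyp11a1 (2 to 8) were the 5 read in every library. All 5 had a lower mean at 6-12hpi, Col4a1 at 3.26 and then 1.45 CPM and Star at 1.10 and then 0.59 CPM. Ptgs2, Vim, Tnfaip6, Vcan and Fshr had a higher mean at 6-12hpi, with at most 9 reads in a library. A wider list of 32 genes that cumulus and granulosa cells express, Serpine2 among them, summed to 1090.0 to 1300.0 CPM at 0-6hpi and 815 to 847 CPM at 6-12hpi, with no overlap. Serpine2 alone made up most of the sum in each of the 6 libraries, so this difference largely follows that gene. The eggs were mixed with sperm while still in cumulus during the 0-6hpi labelling. The part of cumulus RNA in the results was not tested. The sperm transcripts Prm1 and Tnp2 had no read in the 6 libraries, but Prm2 had 36 to 66 reads and Akap4 1 to 8 reads in each. The means of Prm2 were 4.2 CPM at 0-6hpi and 5.08 CPM at 6-12hpi. Together 7 sperm markers, Prm2 among them, reached 3.92 to 5.89 and 5.01 to 8.52 CPM. The summed level of 3 blood markers stayed at or below 0.21 CPM. A wider list of 29 sperm and testis genes summed to 241 to 267 CPM at 0-6hpi and 221 to 248 CPM at 6-12hpi. A wider list of 9 erythrocyte and leukocyte genes summed to 21.8 to 23.4 and 24.5 to 34.1 CPM. Of the 10 and 6 tested members of these lists, only 5 and 1 averaged 1 CPM or more. Which cells these reads came from was not tested. Mitochondrially encoded genes took 0.683 to 0.818% of counts at 0-6hpi and 0.924 to 1.02% at 6-12hpi, with no overlap. The part of that share in the results was tested only by leaving these genes out, which left 1245 calls against 1243.

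Between the early and the mid zygote 768 of 16234 genes rose (4.73% of those tested) and 475 fell (2.93%), at an adjusted p below 0.05 by edgeR's quasi-likelihood test with Benjamini-Hochberg adjustment. That is 7.66% in all, and 61.8% of the changes were rises. By at least 2-fold, 338 genes rose and 205 fell. The median log2 fold change was 0.93 for risen genes, -0.90 for fallen genes and 0.06 for all genes tested. The 3 libraries of one group lay wholly above the 3 of the other for 1228 of the 1243 changed genes, against 32.4% of all genes tested. The calls rest on the same values and favour such genes, so this adds no separate support. A fit of these 6 libraries alone, with its own estimate of the spread, called 1854 rises and 1723 falls among 11867 genes, 51.8% of them rises. It kept 691 of the 768 risen and 468 of the 475 fallen genes and called none in the opposite direction, as did edgeR and DESeq2 in the other settings tried. Of the genes picked for naming that the joint fit of all 30 libraries did not call, the fit of the 6 libraries called 21 and did not call 30. Genes said below not to pass the test did not pass it in the joint fit, which does not show that they were unchanged. With 1 library left out, 739 genes were called without 0-6hpi replicate 3 and 820 without 6-12hpi replicate 1; the other 4 such fits called 862 to 871. In these fits 398 to 524 genes rose (452, 472 and 398 without 0-6hpi library 1, 2 and 3, and 465, 524 and 510 without those of 6-12hpi), 338 to 417 fell, and rises made up 52.0 to 60.8% of the changes.

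**Figure D1:**
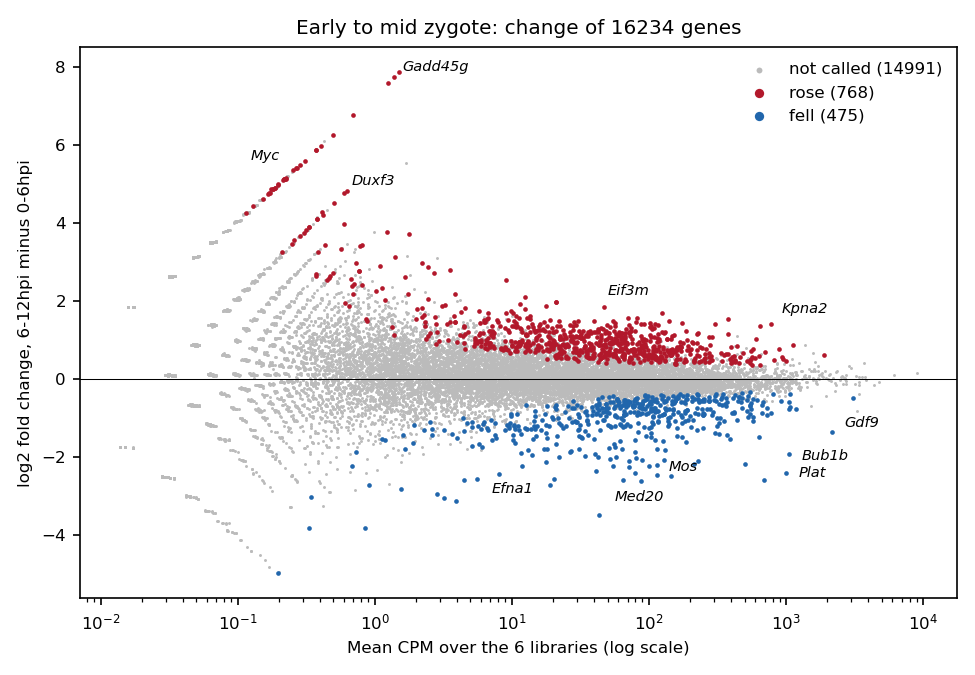
Each point is a gene, with its mean CPM over the 6 libraries on a log axis and its log2 fold change, 6-12hpi minus 0-6hpi, on the other. Red points are the 768 genes that rose, blue points the 475 that fell and grey points the genes not called. Most risen genes lie below 2 on the log2 scale, the exceptions being mainly genes under 10 CPM, while egg transcripts of high CPM such as Gdf9, Plat and Bub1b lie among the falls. Folds of genes with at most 3 reads in a group depend on the prior count and are not read as sizes.

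The largest falls among well measured genes included transcripts that an egg uses up to and at fertilisation. Mos (chr4:3870658-3872105, build GRCm38.p6 by RefSeq, as for all positions here), the kinase that keeps the egg in metaphase, was at 198, 163 and 199 CPM in the 3 0-6hpi libraries and 35.9, 40.5 and 45.7 CPM in the 3 6-12hpi libraries (log2 fold change -2.20, SE 0.39, adjusted p = 0.000523). Astl (chr2:127338639-127357655), which encodes ovastacin, the protease that cleaves the zona pellucida after fertilisation, was at 161, 126 and 169 CPM and then 20.7, 20.6 and 32.9 CPM (log2 fold change -2.62, SE 0.34, adjusted p = 6.27e-06). Plat (chr8:22757722-22782848), tissue plasminogen activator, a stored egg mRNA, was at 1577, 1678 and 1840 CPM and then 306, 312 and 339.5 CPM (log2 fold change -2.41, SE 0.32, adjusted p = 1.55e-05). For these 3 genes every 6-12hpi library lay at under 30% of every 0-6hpi library.

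Other large falls were in genes of general cell function. Med20 (chr17:47611585-47624251), a subunit of the Mediator head, was at 96.5, 122 and 114 CPM and then 15.2, 21 and 19.1 CPM (log2 fold change -2.58, SE 0.18, adjusted p = 1.73e-12). Taldo1 (chr7:141392160-141402976), transaldolase of the pentose phosphate pathway, was at 175, 204 and 208 CPM and then 37.1, 35.6 and 32.7 CPM (log2 fold change -2.48, SE 0.15, adjusted p = 4.43e-14). Saraf (chr8:34154579-34170847), an inhibitor of store-operated calcium entry, was at 251, 242 and 252 CPM and then 44.2, 43.9 and 44.6 CPM (log2 fold change -2.49, SE 0.17, adjusted p = 5.44e-13). The replicates of these genes lay close together within a group. The ephrin Efna1 fell by 2.72 on the log2 scale, the interleukin receptor subunit Il1rap by 2.56, the securin-binding Pttg1ip by 2.42, the ceramide synthase Cers2 by 2.35 and Smg8, of nonsense-mediated decay, by 2.25. The epimerase Dse fell by 2.24 and Prkab1, a subunit of the AMP-activated kinase, by 2.19.

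Among transcripts of high CPM the falls reached the oocyte growth factor Gdf9, the spindle checkpoint kinase Bub1b, the decapping activator Dcp1a, the endoplasmic reticulum stress sensor Ern1 and the actin nucleator Spire1. Bub1b (chr2:118598202-118641592) was at 1580, 1688 and 1756 CPM and then 429, 457 and 435 CPM (log2 fold change -1.93, SE 0.12, adjusted p = 4.43e-14). Ern1 (chr11:106397620-106487796) was at 817, 826 and 834 CPM and then 187, 195 and 168 CPM (log2 fold change -2.17, SE 0.20, adjusted p = 2.83e-09). Gdf9 (chr11:53430774-53437904) was at 3108, 3126 and 3116 CPM and then 1216, 1180 and 1266 CPM (log2 fold change -1.35, SE 0.38, adjusted p = 0.0324). Its libraries did not overlap, but its call was lost when any one of the 6 libraries was left out (adjusted p up to 0.128), and in the joint fit its dispersion comes from all 10 groups.

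**Figure D2:**
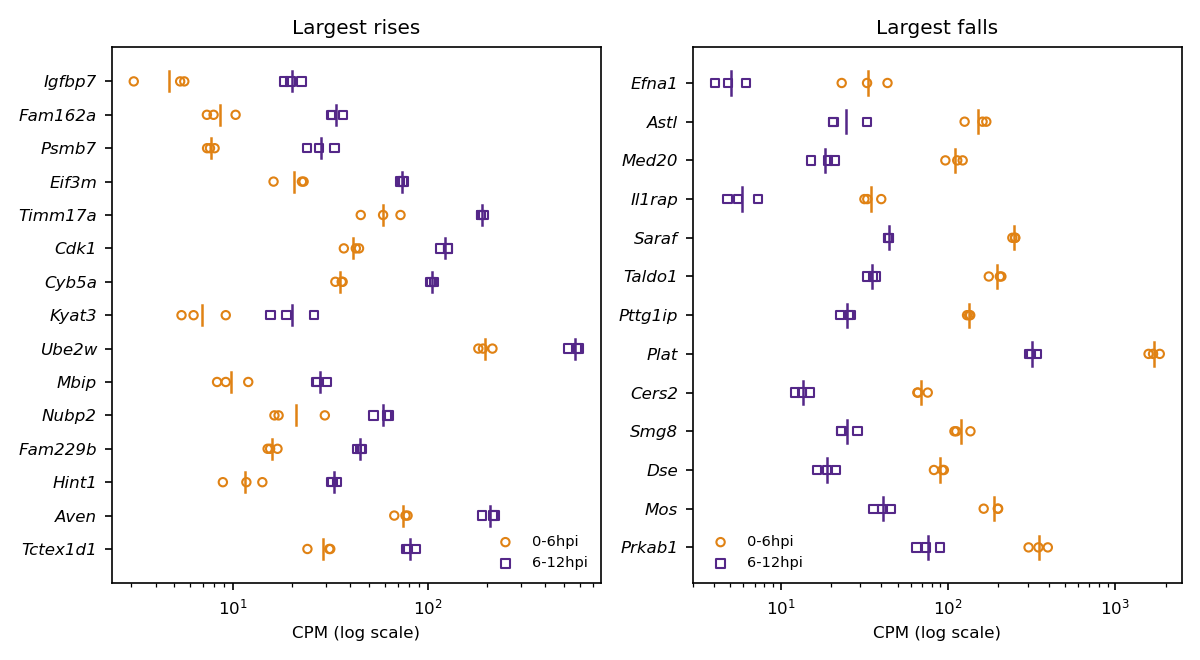
Each row is a gene chosen by the size of its fold among called genes whose groups do not overlap. Its CPM is on a log axis in the 3 0-6hpi libraries (orange circles) and the 3 6-12hpi libraries (purple squares), and vertical bars are group means. The symbols of the groups are apart in every row because the choice required it. Saraf falls from between 242 and 252 CPM to between 43.9 and 44.6 CPM.

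The list of meiotic arrest and egg activation held both directions: 4 of 37 tested members rose and 4 fell (10.8% each way, against 4.73% and 2.93% of all genes). The falls were Bub1b, Mos, the meiotic kinase Aurkc and the phosphodiesterase Pde3a. The rises were Cdk1, the kinase of M phase, its inhibitor Wee1, Mapk3 and Cdc25b. Cdk1 (chr10:69335146-69352912) was at 42.7, 44.3 and 37 CPM and then 127, 127 and 116 CPM (log2 fold change 1.58, SE 0.15, adjusted p = 1.36e-09). Wee1 was at 6.34, 4.84 and 5.85 CPM and then 16.1, 18.5 and 15.9 CPM (log2 fold change 1.56, SE 0.32, adjusted p = 0.00105), while the oocyte form Wee2 measured 1383, 1540 and 1394 CPM and 1526, 1520 and 1467 CPM (adjusted p = 1). The somatic kinase thus differed beyond the spread of its libraries and the oocyte kinase did not pass the test. Fbxo43, the inhibitor of the anaphase-promoting complex that holds the arrest, was at 378, 385 and 376 CPM and then 347, 345 and 325 CPM (adjusted p = 0.845). Cyclin B1, Ccnb1, measured 3368 ± 337 and 3471 ± 110.2 CPM (mean ± SD, n = 3, adjusted p = 0.949). Of this list 2 to 3 rose with 1 library left out (2 without 0-6hpi library 1, 2 or 3 or 6-12hpi library 1 or 2), and 3 to 4 fell.

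Of 8 tested genes of the zona pellucida and egg surface, 4 fell (50.0%, against 2.93% of all genes) and 1 rose (12.5%, against 4.73%). The median log2 fold change was -0.49 against 0.06 for all genes. Over all 9 members, as tested by DESeq2 or with no low-count filter, the median was 0, and in the fit of the 6 libraries alone 3 rose and 4 fell. Zp3 (chr5:135980105-135988624), a zona protein, was at 430.3, 442 and 469.8 CPM and then 194, 204 and 215 CPM (log2 fold change -1.13, SE 0.15, adjusted p = 1.37e-06). Zp1, another zona protein, was at 243, 254 and 247 CPM and then 111, 107 and 136 CPM (log2 fold change -1.07, SE 0.26, adjusted p = 0.00608). Both had all 6-12hpi libraries below all 0-6hpi libraries. Zp2, the zona protein that ovastacin cuts, measured 161, 166 and 155 CPM and 164, 159 and 190 CPM (adjusted p = 0.9), so the zona genes did not share one course. The other falls were in Astl and the tetraspanin Cd81, and the rise was in Cd9, the tetraspanin needed for sperm fusion, at 36.7, 41.5 and 35.7 CPM and then 66.8, 74.5 and 76.1 CPM (log2 fold change 0.93, SE 0.15, adjusted p = 3.70e-05). The sperm receptor Juno, Izumo1r, measured 86.9 ± 1.89 and 115 ± 8.46 CPM and did not pass the test (adjusted p = 0.466).

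The maternal-effect genes called in the joint fit all fell. Of 31 tested genes of the subcortical maternal complex and other maternal-effect genes, 3 fell (9.68%, against 2.93% of all genes) and no member rose (4 higher at an unadjusted p below 0.05). With DESeq2 3 rose, with no low-count filter 5 and after thinning to one depth 2. In the fit of the 6 libraries alone 11 rose and 11 fell, and in the joint fit 1 fell whichever library was left out. The 3 were Gdf9, the corepressor Trim28 and Zar1, which stores mRNA in oocytes. Trim28 was at 119.6, 109.8 and 143 CPM and then 74.1, 60.2 and 64.6 CPM (log2 fold change -0.90, SE 0.14, adjusted p = 2.40e-05). Zar1 was at 584, 564 and 631 CPM and then 298, 280.5 and 284 CPM (log2 fold change -1.04, SE 0.31, adjusted p = 0.0439), and lost its call with any one of the 6 libraries left out or with DESeq2 (highest adjusted p 0.194). The libraries of both genes did not overlap. Nlrp5, a core member of the complex, measured 595 ± 17 and 702 ± 40.3 CPM (adjusted p = 0.684), and Dppa3, which protects the maternal genome from demethylation, 1726 ± 111 and 1929 ± 66.8 CPM (adjusted p = 0.427).

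Among genes that destroy maternal mRNA the share that fell was above that of all genes, and the share that rose was near it. Of 45 mRNA decay genes 2 rose (4.44%, against 4.73% of all genes) and 4 fell (8.89%, against 2.93%); 0 to 1 rose whichever library was left out, and 2 to 4 fell with 1 library left out (2 without 0-6hpi library 2). Dcp1a, which activates decapping, was at 883, 957 and 963 CPM and then 348, 345 and 297 CPM (log2 fold change -1.50, SE 0.19, adjusted p = 8.43e-07). Upf1, the helicase of nonsense-mediated decay, was at 45.7, 42.7 and 52.2 CPM and then 16.6, 17 and 16.3 CPM (log2 fold change -1.49, SE 0.23, adjusted p = 1.79e-05). These and the AU-rich element binder Zfp36 and the decapping scaffold Edc4 were the falls, and the RNA-binding Celf1 and the decapping cofactor Pnrc2 the rises. Zfp36 was at 11.4, 16.5 and 12.4 CPM and then 5.47, 5.96 and 5.99 CPM (log2 fold change -1.21, SE 0.30, adjusted p = 0.00807), and lost its call without 0-6hpi library 2 (highest adjusted p 0.053). The adaptor Btg4, which directs the deadenylase to maternal mRNA, measured 2555 ± 108 and 2633 ± 44 CPM (adjusted p = 1), and the deadenylase Cnot6l 494 ± 61.8 and 545 ± 7.8 CPM (adjusted p = 0.735).

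Among 34 genes of poly(A) tail and stored-mRNA control, 3 rose (8.82%, against 4.73% of all genes). The 1 that fell (2.94%) is near the share of all genes (2.93%). With 1 library left out 1 to 2 rose (1 without 0-6hpi library 1 or 3 or 6-12hpi library 2) and 0 to 1 fell. The cap-binding Eif4e was at 726, 864 and 737 CPM and then 1178, 1114 and 1057 CPM (log2 fold change 0.53, SE 0.11, adjusted p = 0.00181). The poly(A) polymerase Papola was at 215, 179 and 215 CPM and then 149, 159.5 and 142 CPM (log2 fold change -0.43, SE 0.12, adjusted p = 0.013), and lost its call without 0-6hpi library 1 or with no low-count filter (highest adjusted p 0.114). Every Eif4e library of the mid zygote lay above, and every Papola library below, those of the early zygote. The other rises were Eif4e2, a cap-binding protein that represses translation, and Cpsf4l. The cytoplasmic polyadenylation factor Cpeb1 measured 466 ± 41.7 and 378 ± 30.1 CPM (adjusted p = 0.353), and the germ cell RNA-binding protein Dazl 1816 ± 55.6 and 1891 ± 53.5 CPM (adjusted p = 0.975).

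Among genes whose higher group reached a mean of 20 CPM, the largest rises were smaller in fold than the largest falls and came from genes of varied function. Eif3m (chr2:104999656-105017027), a subunit of the initiation factor that binds the small ribosomal subunit, was at 23, 22.6 and 16.1 CPM and then 71.7, 75 and 73.9 CPM (log2 fold change 1.84, SE 0.17, adjusted p = 7.65e-10). Psmb7 (chr2:38588046-38643952), a catalytic subunit of the proteasome, was at 7.61, 8.04 and 7.35 CPM and then 27.6, 33.2 and 23.9 CPM (log2 fold change 1.88, SE 0.17, adjusted p = 3.14e-10). Timm17a (chr1:135301535-135313737), of the mitochondrial inner membrane import channel, was at 58.9, 72.3 and 45.2 CPM and then 193, 187 and 188 CPM (log2 fold change 1.69, SE 0.16, adjusted p = 1.81e-09). In each the lowest mid-zygote library was over 2 times the highest early-zygote library. Igfbp7, a secreted binding protein of insulin-like growth factors, rose by 2.10 on the log2 scale, Fam162a by 1.98, the electron carrier Cyb5a by 1.57 and the kynurenine aminotransferase Kyat3 by 1.54. Nubp2, of cytosolic iron-sulphur assembly, rose by 1.50, Hint1 by 1.50, the apoptosis inhibitor Aven by 1.49 and the dynein light chain gene Tctex1d1 by 1.49. Mbip rose by 1.51 and Fam229b by 1.50.

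Transcripts of high CPM also rose. Kpna2 (chr11:106988629-106999525), an importin alpha that carries proteins into the nucleus, was at 419.8, 433 and 416 CPM and then 1140, 1120 and 1127 CPM (log2 fold change 1.42, SE 0.14, adjusted p = 3.34e-09). Nusap1, a spindle protein, was at 438, 389 and 365 CPM and then 849, 809 and 761 CPM (log2 fold change 1.02, SE 0.13, adjusted p = 5.22e-07). Copz1, a subunit of the COPI vesicle coat, was at 226, 242 and 237 CPM and then 507, 518 and 542 CPM (log2 fold change 1.15, SE 0.14, adjusted p = 1.96e-07). Txndc9, a regulator of protein folding, was at 367 ± 29.2 and 937 ± 34.5 CPM (log2 fold change 1.35, SE 0.13, adjusted p = 8.60e-10). The choice of these genes required that their groups be wholly apart.

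The list with the largest share of rises was that of the cytosolic ribosomal proteins. Of 86 cytosolic ribosomal protein genes 40 rose (46.5%, against 4.73% of all genes) and 1 fell, with a median log2 fold change of 0.56. In 56 of the 86 all mid-zygote libraries lay above all early-zygote libraries, as in 19.1% of all genes tested. Their summed level was 3780.0 to 3940.0 CPM at 0-6hpi and 4480.0 to 4740.0 CPM at 6-12hpi. Leaving out 1 library, 28 to 35 members rose, and 52 in the fit of the 6 libraries alone. Rps24 (chr14:24490678-24496960) was at 41.7, 37.2 and 34.1 CPM and then 84.2, 77.5 and 82.7 CPM (log2 fold change 1.11, SE 0.14, adjusted p = 4.97e-07). Rps6 (chr4:86854099-86857367), the small-subunit protein phosphorylated by S6 kinase, was at 23.8, 24.4 and 21.5 CPM and then 54.8, 54.2 and 49 CPM (log2 fold change 1.18, SE 0.15, adjusted p = 8.44e-07). Rpl7a (chr2:26910685-26913312) was at 13.8, 13 and 10.8 CPM and then 25.2, 34.8 and 28.5 CPM (log2 fold change 1.24, SE 0.17, adjusted p = 2.79e-06), and Rpl19 rose by 1.05 on the log2 scale. The exception was Rpl13, which fell from 119, 105 and 107 CPM to 71.6, 84.9 and 72 CPM (log2 fold change -0.53, SE 0.13, adjusted p = 0.00508), and Rplp0, of the ribosomal stalk, measured 191 ± 20.8 and 169.7 ± 3.54 CPM (adjusted p = 0.524). Ribosomal protein genes have many processed pseudogenes with which reads can be shared, so single members are less certain than the count.

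Ribosomal protein and several translation factor mRNAs are known as TOP mRNAs, which start with a C and a run of pyrimidines that couples their translation to growth signals. Printed here are the promoter ends of the 4 ribosomal protein genes with the smallest adjusted p and of Eif3m, from RefSeq (build GRCm38.p6), to show the start these transcripts share or lack. Each runs 5′ to 3′ on the strand of the gene from 50 bases before the annotated start to 10 bases from it. Capitals mark the longest run of C and T that begins with C and has at least 8 bases.

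Rps24 (chr14:24490628-24490687, plus strand): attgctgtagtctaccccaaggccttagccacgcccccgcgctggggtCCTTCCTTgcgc
Rps6 (chr4:86857358-86857417, minus strand): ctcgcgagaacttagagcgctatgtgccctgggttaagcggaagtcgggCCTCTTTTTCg
Rpl7a (chr2:26910757-26910816, plus strand): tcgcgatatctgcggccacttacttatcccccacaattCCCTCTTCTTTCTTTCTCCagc
Rpl19 (chr11:98026660-98026719, plus strand): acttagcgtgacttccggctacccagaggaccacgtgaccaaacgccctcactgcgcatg
Eif3m (chr2:105017018-105017077, minus strand): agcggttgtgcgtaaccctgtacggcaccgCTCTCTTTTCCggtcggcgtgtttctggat

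The run was 8 bases long in Rps24, 10 in Rps6, 19 in Rpl7a and 11 in Eif3m, and spanned or came within 10 bases of the annotated start in these 4. In the record printed for Rpl19 no run of 8 lies in the window. Rpl19 and Rps24 have 2 promoter records each, of which the first is printed, so the window does not show that Rpl19 lacks a run. Of 32841 promoter records of the same 60 bases, 19.8% hold such a run. A record was found for 65 of the 86 ribosomal protein genes (75.6%), of which 36 hold such a run. With over 20% of the list lacking a record the comparison over the list is void, and annotated starts can differ from the used start. The start printed for Rpl7a lies inside the RefSeq span of the gene, which has a more distal start too.

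Other parts of the protein synthesis machinery moved less uniformly. Of 73 translation initiation, elongation and release factors 12 rose (16.4%, against 4.73% of all genes) and 2 fell (2.74%, against 2.93%). Eif1ax, the scanning factor of the 43S complex, was at 88.9, 79.2 and 70.7 CPM and then 189, 171 and 182 CPM (log2 fold change 1.18, SE 0.14, adjusted p = 9.17e-08). Eef1e1, of the multisynthetase complex, was at 74.9, 72.4 and 78 CPM and then 186, 173 and 162 CPM (log2 fold change 1.21, SE 0.13, adjusted p = 3.74e-08). Eif2ak1, a kinase that inhibits initiation through eIF2 alpha, went the other way, at 448, 434 and 436 CPM and then 169.6, 206 and 191 CPM (log2 fold change -1.22, SE 0.12, adjusted p = 1.80e-09). None of these 3 had overlapping groups. The other rises were Eif3m, Eef1d, Eef1a1, Eif1b, Eif4e, Eif3h, Eif4e2, Eif2s1, Eef1b2 and Eif2d, and the other fall Eif2b1. Of this list 7 to 11 rose with 1 library left out (7 without 0-6hpi library 1 or 3 or 6-12hpi library 1 or 2), and in the fit of the 6 libraries alone 20 rose and 13 fell. Of 73 ribosome biogenesis genes 7 rose (9.59%) and 3 fell (4.11%), with a median of -0.01. With 1 library left out 4 to 6 rose (4 without 0-6hpi library 3). Nhp2, of the box H/ACA snoRNP, was at 5.43, 5.56 and 6.02 CPM and then 12.8, 14.7 and 16.3 CPM (log2 fold change 1.36, SE 0.18, adjusted p = 7.95e-07), whereas the nucleolar GTPase Gnl2 fell by 0.46 on the log2 scale (SE 0.12, adjusted p = 0.0106) and lost its call with no low-count filter (highest adjusted p 0.0855). The core snoRNP protein Nop58 measured 214 ± 5.33 and 174 ± 10.8 CPM (adjusted p = 0.223). Of 40 aminoacyl-tRNA synthetases 1 rose (2.5%), the mitochondrial Lars2. Lars2 lost its call without 0-6hpi library 2 or 3 or 6-12hpi library 1, 2 or 3, with DESeq2 size factors, in the fit of the 6 libraries alone or with total count scaling (highest adjusted p 0.469).

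A larger share of the genes for mitochondrial proteins rose than of all genes tested (4.73%). Of 78 mitochondrial ribosomal protein genes 20 rose (25.6%) and 1 fell, and of 80 nuclear genes of the respiratory chain and ATP synthase 14 rose (17.5%) and 1, the complex III core protein Uqcrc2, fell. Mrpl48 was at 204, 198 and 172 CPM and then 346, 320.1 and 322 CPM (log2 fold change 0.78, SE 0.14, adjusted p = 0.000158). Cox4i1, of cytochrome c oxidase, was at 35, 26.3 and 31.2 CPM and then 52.9, 59 and 57.6 CPM (log2 fold change 0.87, SE 0.13, adjusted p = 6.91e-06). Sdhd, the membrane anchor of complex II, was at 27.4, 27.6 and 25.9 CPM and then 64.6, 63.4 and 69 CPM (log2 fold change 1.28, SE 0.25, adjusted p = 0.000423). In all 3 the groups did not overlap, nor did they in 46 of the 80 respiratory genes with the mid zygote higher and 4 with it lower, against 19.1% and 13.4% of all genes tested. Of the respiratory genes 5 to 12 rose with 1 library left out (5 without 0-6hpi library 3, 9 without 0-6hpi library 2 or 6-12hpi library 2 or 3), and 26 rose with DESeq2. Of the mitochondrial ribosomal genes 13 to 16 rose with 1 library left out (13 without 0-6hpi library 2 or 3). Of 10 tested genes encoded in mitochondrial DNA, mt-Nd1 rose from 1378, 1834 and 1240 CPM to 2253, 2407 and 2226 CPM (log2 fold change 0.63, SE 0.14, adjusted p = 0.00192) and lost its call without 0-6hpi library 3 (highest adjusted p 0.0834). The subunit mt-Nd5 rose by 0.45 on the log2 scale (adjusted p = 0.0441) and lost its call with any one of the 6 libraries left out or with total count scaling (highest adjusted p 0.335). The subunit mt-Co1 measured 1055 ± 138 and 1062 ± 86.3 CPM (adjusted p = 1).

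Among 43 genes of pyruvate oxidation, the citric acid cycle and glycolysis 4 rose (9.3%, against 4.73% of all genes), all of glycolysis. No member fell (1 lower at an unadjusted p below 0.05, and 1 with DESeq2). In the fit of the 6 libraries alone 9 rose and 3 fell. Gpi1, glucose phosphate isomerase, was at 17.3, 23.1 and 14 CPM and then 45.2, 33 and 33.6 CPM (log2 fold change 1.05, SE 0.20, adjusted p = 0.000376). Tpi1, triosephosphate isomerase, was at 34.5, 49.8 and 31.4 CPM and then 84.7, 87.8 and 91.2 CPM (log2 fold change 1.19, SE 0.28, adjusted p = 0.00528), and lost its call without 0-6hpi library 3 (highest adjusted p 0.0579). The other rises were in the aldolase Aldoa and in Ldha, a lactate dehydrogenase subunit below 3 CPM in every library. Of this list 1 to 3 rose with 1 library left out (1 without 0-6hpi library 3, 2 without 6-12hpi library 2). Ldhb, the subunit that the egg stores, measured 2493 ± 117 and 2440 ± 112 CPM (adjusted p = 1).

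The share of protein turnover genes that rose was also above that of all genes. Of 48 proteasome genes 11 rose (22.9%) and 2, Psmd3 and Psme2, fell, and of 34 ubiquitin-conjugating enzymes 8 rose (23.5%) and 1, Ube2h, fell. Psma6, a ring subunit of the core particle, was at 50.5, 34.7 and 40.3 CPM and then 84.1, 77.9 and 74.9 CPM (log2 fold change 0.92, SE 0.15, adjusted p = 3.69e-05). Ube2w (chr1:16540788-16619460), which attaches ubiquitin to protein N-termini, was at 214, 192 and 182 CPM and then 581, 592 and 525 CPM (log2 fold change 1.53, SE 0.13, adjusted p = 8.85e-11). Ube2a, a partner of RAD18 and RNF20, was at 51.5, 73 and 58 CPM and then 183, 159 and 146 CPM (log2 fold change 1.42, SE 0.14, adjusted p = 2.20e-09). None of these overlapped between groups. Ube2c, the partner of the anaphase-promoting complex, rose by 1.03 on the log2 scale (SE 0.12, adjusted p = 6.68e-08). Psma7, another ring subunit, measured 1064 ± 26.8 and 927 ± 7.34 CPM and did not pass the test (adjusted p = 0.473). Leaving out 1 library, 8 to 10 proteasome genes rose, and of the conjugating enzymes 5 to 7 rose with 1 library left out (5 without 0-6hpi library 3 or 6-12hpi library 1).

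**Figure D3:**
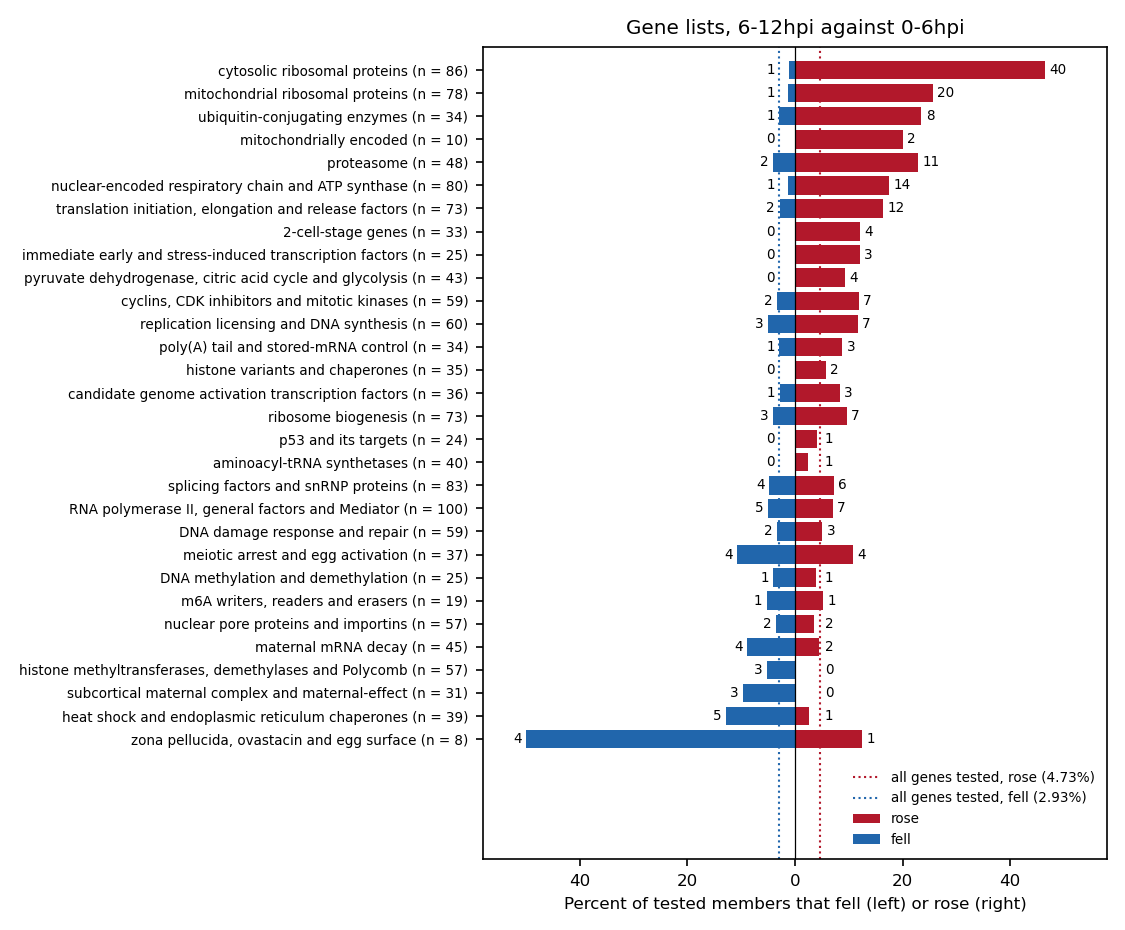
Bars give the percent of tested members of each list that rose (red, to the right) or fell (blue, to the left), with the number of genes at the end of each bar. Dotted lines mark the percent of all genes tested that rose (4.73%) or fell (2.93%); cytosolic ribosomal proteins stand farthest to the right with 40 of 86 risen, and the 8 egg surface genes farthest to the left with 4 fallen.

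A small set of genes went from almost no reads to measured reads. Of 2298 tested genes with at most 3 reads over the 0-6hpi libraries, 53 rose (2.31%); of 1902 with at most 3 reads over the 6-12hpi libraries, 4 fell (0.21%). The 53 had 7 to 89 reads over the 3 mid-zygote libraries, with a median of 17, and 46 had reads in all 3. The 0-6hpi libraries held no read of 32 of them. These genes are named after their values were seen. Gadd45g (chr13:51846675-51848475), a growth arrest and DNA damage-inducible gene, had no read at 0-6hpi and 27, 36 and 20 reads in the 6-12hpi libraries, at least 30.4-fold higher if 3 reads over the group are taken as the limit that a count of 0 allows. The growth regulator Myc had no read and then 5, 7 and 4 reads (at least 5.86-fold), the secreted phosphoprotein Spp1 24, 16 and 2 reads (at least 15.4-fold) and the retinoic acid hydroxylase Cyp26a1 14, 6 and 9 reads (at least 10.6-fold). The chemokine Cxcl10 and the signalling antagonist Spry2 also had no read at 0-6hpi, and 11, 6 and 5 and 6, 4 and 6 reads at 6-12hpi. Duxf3, the mouse Dux gene that activates 2-cell genes, had 1 read at 0-6hpi and 13, 17 and 5 reads at 6-12hpi, a ratio of 38.4 with a 95% counting interval of 6.46 to 1560.

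These calls rest on few reads. DESeq2 called 38 of the 53 and gave no adjusted p for the other 15, and thinning all libraries to one depth kept 27. Leaving out 1 library, 12 to 33 were called (12, 22 and 14 without 0-6hpi library 1, 2 and 3, and 29, 29 and 33 without those of 6-12hpi), and 10 were called in all 6 such fits, among them Gadd45g, Myc, Spp1, Cyp26a1, Cxcl10, Spry2 and Duxf3. The transcription factor Klf5 had 3, 29 and 3 reads, most of them in library 2, and lost its call without 0-6hpi library 1 or 3 or 6-12hpi library 2 (highest adjusted p 0.409). The deubiquitinase genes Usp17la, with 23, 25 and 26 reads, and Usp17ld, with 12, 6 and 11, belong like Duxf3 to multicopy families whose near-identical members can share reads, so the member is uncertain. Usp17la was called in only 1 and Usp17ld in 4 of the 6 fits that left out a library. In libraries of other stages, 37 of the 53 (69.8%) were higher at 12-18hpi than in MII oocytes, against 24.2% of all tested genes with at most 3 reads at 0-6hpi. The start of Gadd45g, the gene with the most reads among the 53 after Gm26707, is printed as a single example. Its capitals mark TATAAA, the TATA box core, which 2.63% of the 32841 promoter records hold in the 50 bases before the start. How many of the 53 hold it was not counted.

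Gadd45g (chr13:51846625-51846684, plus strand): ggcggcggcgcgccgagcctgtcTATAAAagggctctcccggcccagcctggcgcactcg

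Of 36 candidate transcription factors of genome activation 3 rose (8.33%, against 4.73% of all genes) and 1 fell (2.78%, against 2.93%). With 1 library left out 1 to 3 rose (1 without 0-6hpi library 1 or 3 or 6-12hpi library 2). The DNA-binding Dppa4 was at 6.25, 5.56 and 6.52 CPM and then 16, 14.6 and 15.9 CPM (log2 fold change 1.33, SE 0.21, adjusted p = 3.18e-05). Its partner Dppa2 was at 195, 194 and 203 CPM and then 272, 262 and 267 CPM (log2 fold change 0.44, SE 0.12, adjusted p = 0.0168), and lost its call with any one of the 6 libraries left out (highest adjusted p 0.0996). Nfya, the DNA-binding subunit of NF-Y, was at 292, 272 and 222 CPM and then 125, 146 and 108 CPM (log2 fold change -1.05, SE 0.17, adjusted p = 5.34e-05). The groups did not overlap for Dppa4 or for Nfya. Obox1 measured 814 ± 72.8 and 759.7 ± 6.67 CPM (adjusted p = 0.971), Nr5a2 17 ± 0.721 and 19.9 ± 1.09 CPM (adjusted p = 0.598) and Klf17 812 ± 168 and 565 ± 14.9 CPM (adjusted p = 0.289).

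Of 33 tested genes of the 2-cell stage 4 rose (12.1%, against 4.73% of all genes) and no member fell (0 lower at an unadjusted p below 0.05, and 0 with DESeq2). Their median log2 fold change was 1.00, but only 13 of them averaged 1 CPM or more over the 6 libraries, and 1 to 3 rose with 1 library left out (1 without 0-6hpi library 2, 2 without 0-6hpi library 1 or 3 or 6-12hpi library 1). Arg2 (chr12:79130788-79156301), the mitochondrial arginase, was at 153, 178 and 170.1 CPM and then 447, 431 and 454 CPM (log2 fold change 1.41, SE 0.20, adjusted p = 3.72e-06). Sp110, a nuclear body protein, was at 383, 352 and 318 CPM and then 489.5, 474 and 520.1 CPM (log2 fold change 0.49, SE 0.15, adjusted p = 0.0274), and lost its call without 0-6hpi library 2 or 3 or 6-12hpi library 1, 2 or 3 (highest adjusted p 0.231). The remaining rises were Usp17la and Usp17ld, called in 1 and 4 of the 6 fits that left out a library. Zfp352 measured 0.906, 1.65 and 0 CPM and then 4.85, 3.5 and 3.15 CPM, with no overlap, and did not pass the test (adjusted p = 0.184). Zscan4d, of a multicopy family, measured 4.17, 4.33 and 2.67 CPM and then 6.71, 7 and 5.68 CPM (adjusted p = 0.55). Among 25 immediate early and stress-induced factors Myc, the Notch target Hes1 and the stress factor Ddit3 rose (12.0%). With 1 library left out 1 to 2 rose (1 without 0-6hpi library 3). Hes1 was at 0.453, 0.618 and 0.0836 CPM and then 1.96, 2.46 and 1.26 CPM (log2 fold change 2.33, SE 0.54, adjusted p = 0.00355), and lost its call without 0-6hpi library 3 (highest adjusted p 0.0723). Ddit3 was at 26.9, 27.7 and 24.6 CPM and then 50.3, 48 and 48.5 CPM (log2 fold change 0.89, SE 0.25, adjusted p = 0.0169), and lost its call with any one of the 6 libraries left out (highest adjusted p 0.111).

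In the transcription and splicing machinery the directions were mixed. Of 100 genes of RNA polymerase II, its general factors and Mediator, 7 rose (7.0%, against 4.73% of all genes) and 5 fell (5.0%, against 2.93%). With 1 library left out 3 to 5 rose (3 without 0-6hpi library 3 or 6-12hpi library 1, 4 without 0-6hpi library 2). Beside Med20, the Mediator subunit Med11 fell from 39.5, 46.2 and 50.0 CPM to 18.3, 17.1 and 13.5 CPM (log2 fold change -1.47, SE 0.21, adjusted p = 4.29e-06), and the Mediator subunits Med6 and Med28 rose, Med6 from 127, 116 and 126 CPM to 229, 210.5 and 217 CPM (log2 fold change 0.83, SE 0.12, adjusted p = 4.88e-06). Subunits of one complex thus moved in opposite directions. Of 83 splicing genes 6 rose (7.23%) and 4 fell (4.82%). With 1 library left out 2 to 4 rose (2 without 0-6hpi library 3, 3 without 0-6hpi library 2 or 6-12hpi library 1, 2 or 3), and 2 to 5 fell (2 without 0-6hpi library 3 or 6-12hpi library 2). Lsm3, a ring protein of U6 snRNP, rose from 71.8, 59.5 and 69.5 CPM to 144, 146 and 133 CPM (log2 fold change 1.07, SE 0.17, adjusted p = 2.36e-05), and the RNA-binding Hnrnpk fell from 603, 671 and 748 CPM to 434, 409.9 and 398 CPM (log2 fold change -0.70, SE 0.12, adjusted p = 9.13e-05). Srsf1, an SR protein, rose by 0.62 on the log2 scale and lost its call without 0-6hpi library 1 or 3 or 6-12hpi library 3 (highest adjusted p 0.106). Of 57 nuclear pore and import genes Kpna2 and Ranbp1 rose, and the pore membrane protein Ndc1 and the importin Ipo8 fell (3.51% each way). Ndc1 was at 158, 184 and 213 CPM and then 83, 93.7 and 99.2 CPM (log2 fold change -1.01, SE 0.17, adjusted p = 5.04e-05). The importin Ipo8 lost its call without 0-6hpi library 3 or 6-12hpi library 1, 2 or 3, with no low-count filter, after thinning to one depth or with total count scaling (highest adjusted p 0.309).

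Genes of DNA replication and of mitosis passed the test in both directions. Of 60 replication genes 7 rose (11.7%, against 4.73% of all genes) and 3 fell (5.0%, against 2.93%). Gins4, of the GINS part of the replicative helicase, was at 42.7, 44.1 and 40.9 CPM and then 86, 94.4 and 93.3 CPM (log2 fold change 1.10, SE 0.14, adjusted p = 5.67e-07), and Gins1 and Gins2 rose too. Prim2, the large primase subunit, was at 158, 157 and 181 CPM and then 58.4, 53.9 and 55.7 CPM (log2 fold change -1.56, SE 0.16, adjusted p = 1.11e-08), and Pole3 and Mcm4 fell too. The GINS subunits and the primase thus went opposite ways, without overlap in Gins4, Gins1 and Prim2. Pcna, the sliding clamp, measured 266 ± 15.7 and 252 ± 9.8 CPM (adjusted p = 0.843). Of 59 cyclins, inhibitors and mitotic regulators 7 rose (11.9%) and 2 fell (3.39%). Skp1a, of SCF ubiquitin ligases, was at 759, 829.6 and 783 CPM and then 1506, 1416 and 1449 CPM (log2 fold change 0.88, SE 0.11, adjusted p = 2.05e-07). Bub3, a spindle checkpoint protein, was at 249.6, 311 and 290 CPM and then 466, 448 and 419 CPM (log2 fold change 0.65, SE 0.13, adjusted p = 0.000686), opposite to its partner Bub1b. Cyclin A2, Ccna2, measured 792 ± 75.4 and 789.9 ± 52.9 CPM (adjusted p = 1). Of the replication genes 2 to 6 rose with 1 library left out (2 without 0-6hpi library 2, 3 without 0-6hpi library 3 or 6-12hpi library 1 or 3, 4 without 0-6hpi library 1), and of the mitotic regulators 4 to 6 rose with 1 library left out (4 without 0-6hpi library 3 or 6-12hpi library 3).

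In DNA repair 3 of 59 genes rose (5.08%) and 2 fell (3.39%), close to the 4.73% and 2.93% of all genes. With 1 library left out 1 to 2 rose (1 without 0-6hpi library 3 or 6-12hpi library 1). Apex1, the abasic site endonuclease of base excision repair, was at 15.1, 20.3 and 19.1 CPM and then 39.2, 37.7 and 31.8 CPM (log2 fold change 1.00, SE 0.18, adjusted p = 0.00019). Fancd2, of the Fanconi pathway, was at 90.0, 88.2 and 80.9 CPM and then 30.4, 43.9 and 40.9 CPM (log2 fold change -1.17, SE 0.22, adjusted p = 0.000421), and Trp53bp1 fell by 0.84 on the log2 scale. The polymerase Polb rose by 0.60, and lost its call without 0-6hpi library 3 or 6-12hpi library 1 (highest adjusted p 0.113). Among 35 histone variants and chaperones 2 rose (5.71%). H3f3a, a gene for the replication-independent H3.3, rose from 436, 422 and 425 CPM to 745, 699 and 732 CPM (log2 fold change 0.76, SE 0.12, adjusted p = 4.41e-05). Chaf1b rose too, and lost its call without 0-6hpi library 2 or 3 or 6-12hpi library 1, 2 or 3 (highest adjusted p 0.235). H1foo, the oocyte linker histone, measured 4118, 4435 and 4039 CPM and then 2347, 2295 and 2505 CPM. Its groups did not overlap, but it did not pass the test in the joint fit (adjusted p = 0.551), where its dispersion comes from all 10 groups.

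Single chromatin and RNA modifiers passed the test. Of 57 histone methyltransferases, demethylases and Polycomb genes Prmt5, Setd2 and Hdac3 fell (5.26%, against 2.93% of all genes), at adjusted p = 0.0126, 0.0238 and 0.0274, and 0 to 2 fell with 1 library left out (0 without 0-6hpi library 3, 1 without 6-12hpi library 1 or 3). No member rose (3 higher at an unadjusted p below 0.05, and 0 with DESeq2), but 1 rose with no low-count filter, and in the fit of the 6 libraries alone 3 rose and 13 fell. Of 25 DNA methylation genes Gadd45g rose and Trim28 fell (4.0% each way). The maintenance methyltransferase Dnmt1 measured 937 ± 130.4 and 796 ± 48.3 CPM (adjusted p = 0.449) and Tet3, which oxidises methylcytosine in the zygote, 606 ± 51.9 and 464 ± 16.1 CPM (adjusted p = 0.371). Of 19 m6A genes 1 fell and 1 rose (5.26% each way). The reader Igf2bp2 fell from 542, 559.9 and 593 CPM to 359, 402 and 361 CPM (log2 fold change -0.60, SE 0.13, adjusted p = 0.00154). The writer subunit Wtap rose and lost its call without 0-6hpi library 2 or 3 or 6-12hpi library 1, 2 or 3, with DESeq2 size factors or with DESeq2 (highest adjusted p 0.423). Of 24 p53 pathway genes Tigar rose (4.17%, against 4.73% of all genes). Tigar lost its call without 0-6hpi library 1, 2 or 3 or 6-12hpi library 2 or 3 or with no low-count filter (highest adjusted p 0.323).

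Several chaperones fell. Of 39 heat shock and endoplasmic reticulum chaperones 5 fell (12.8%, against 2.93% of all genes) and 1 rose (2.56%, against 4.73%), and 4 to 5 fell whichever library was left out. In the fit of the 6 libraries alone 4 rose and 8 fell. Pdia6, a protein disulphide isomerase, was at 272, 263 and 312 CPM and then 86.7, 89.3 and 100.1 CPM (log2 fold change -1.62, SE 0.17, adjusted p = 7.77e-09). P4hb, another, was at 472, 506 and 462 CPM and then 221, 203 and 257 CPM (log2 fold change -1.08, SE 0.13, adjusted p = 2.09e-07). Dnajc3, an inhibitor of the eIF2 alpha kinases, was at 871, 872 and 863 CPM and then 501, 478 and 454 CPM (log2 fold change -0.86, SE 0.13, adjusted p = 7.63e-06). All 3 had groups wholly apart. Dnajb11 of the endoplasmic reticulum and the cytosolic Hspa4 were the other falls. The rise was in Dnajb9, at 15.9, 23.9 and 21.9 CPM and then 38, 41.1 and 39.6 CPM (log2 fold change 0.95, SE 0.19, adjusted p = 0.000758). The cytosolic Hspa8 measured 466 ± 56.9 and 422 ± 29 CPM (adjusted p = 0.651), and the heat-inducible Hspa1a and Hspa1b stayed below 1.4 CPM in every library.

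A marker list of other cells held 2 calls (5.56% of its tested members each way, against 4.73% risen and 2.93% fallen of all genes). Of 18 tested genes of the cumulus and granulosa list Serpine2 fell from 998, 1094 and 1183 CPM to 736, 755 and 733 CPM (log2 fold change -0.56, SE 0.13, adjusted p = 0.00373), and the connexin Gja1 rose from 1 read to 3, 21 and 1 reads and lost its call without 0-6hpi library 1, 2 or 3 or 6-12hpi library 2 (highest adjusted p 0.503). No tested gene of the sperm, blood or blastocyst lists was called in either direction by the joint edgeR fit (10, 6 and 19 tested). At an unadjusted p below 0.05, 0, 0 and 3 were higher and 0, 0 and 1 lower, and DESeq2 called 0, 0 and 2 higher and 0, 0 and 0 lower. Of the blastocyst genes 2 were called higher by edgeR with no low-count filter and 1 lower in the fit of the 6 libraries alone.

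Libraries of 2 other groups that frame this step, unfertilised MII oocytes and embryos of 12-18hpi, both wild type, labelled with 4SU and in 3 libraries each, gave the same genes a separate measurement, although the fit shares its estimate of the spread. Of the 768 risen genes 686 (89.3%) were higher at 12-18hpi than in MII oocytes, against 27.9% of all genes tested, and 12 were lower. Of the 475 fallen genes 429 (90.3%) were lower, against 15.9% of all, and 2 were higher. These shared genes made up 15.1% of the 4537 genes that were higher and 16.6% of the 2589 that were lower at 12-18hpi. The median log2 fold change from MII to 12-18hpi was 1.81 for the risen and -1.58 for the fallen genes, against 0.33 for all. In the egg Fam162a measured 1.59, 2.09 and 0.994 CPM, and at 12-18hpi it measured 28.3, 26.8 and 30.6 CPM (log2 fold change 4.18, adjusted p = 1.77e-13). Bub1b measured 2466, 2263 and 2283 CPM and then 159, 151 and 131 CPM (log2 fold change -3.99, adjusted p = 7.69e-23).

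The genes that went opposite ways in these libraries can be named. The 12 that rose from the early to the mid zygote but were lower at 12-18hpi than in MII oocytes were Sp110, Pdcd5, Siah1a, Ube2q2, Lars2, Nck1, Arhgef40, Paip1, Rpl17, Cenpq, Wtap and Jade3, and the 2 that fell but were higher were Zfp579 and Chchd10. They were named after their values were seen. The kinetochore gene Cenpq was at 158, 178 and 143 CPM in the egg, 137, 108 and 111 CPM at 0-6hpi, 196, 194 and 182 CPM at 6-12hpi and 101, 116 and 122 CPM at 12-18hpi. Of the 14 only Cenpq, Zfp579 and Chchd10 were called in all 6 fits that left out a library. Zfp579 had no read in the 6-12hpi libraries and under 1 CPM at 0-6hpi.

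**Figure D4:**
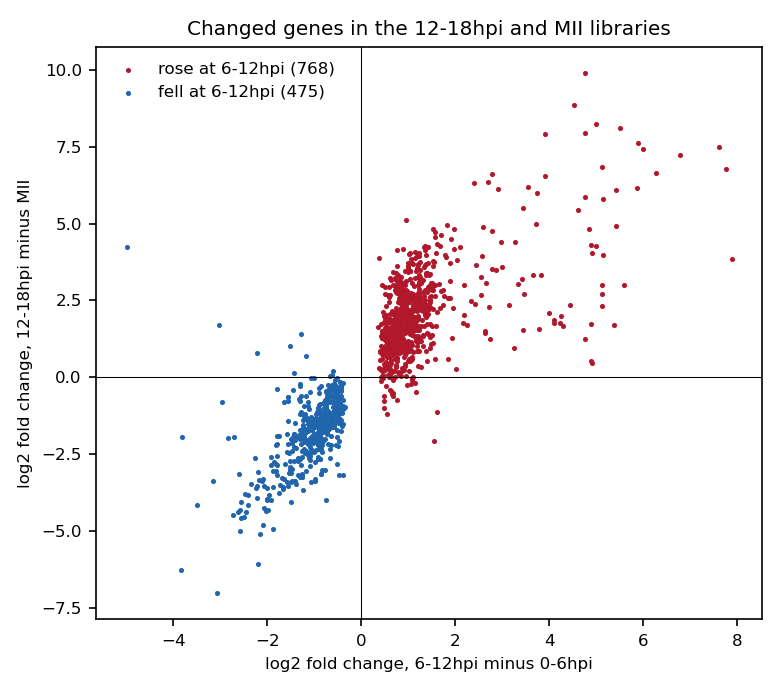
Each point is a gene that rose (red, 768) or fell (blue, 475), with its log2 fold change from 0-6hpi to 6-12hpi on the horizontal axis and from MII oocytes to 12-18hpi on the vertical axis. Most red points lie above 0 (686 called higher) and most blue points below 0 (429 called lower) on the vertical axis.

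Beyond the mid zygote, levels took different courses, given as means ± SD over 3 libraries with no test, since the 6-12hpi level also chose these genes. The median of the fallen genes was 128 CPM in the egg, 102 CPM at 0-6hpi, 54.0 CPM at 6-12hpi and 39.3 CPM at 12-18hpi, and stayed between 33.6 and 39.7 CPM to 90-96hpi. The median of the risen genes was 13.1, 24.4, 44.9 and 46.0 CPM in the same 4 groups and reached 80.3 CPM at 70-76hpi. The means of Mos, Plat and Astl were lower again in the next window, at 14 ± 3.85, 127 ± 18 and 21.1 ± 1.41 CPM at 12-18hpi. Bub1b reached 34.2 ± 4.81 CPM at 18-24hpi and was at 69.4 ± 9.75 CPM at 70-76hpi.

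Some risen genes had their highest early level at 6-12hpi. Of the 768, 139 (18.1%) had all 12-18hpi libraries below all 6-12hpi libraries and 259 (33.7%) above, against 14.7% and 21.5% of all genes tested. Eif3m had a mean of 13.9 ± 1.46 CPM in the egg, 73.5 ± 1.67 CPM at 6-12hpi and 20.9 ± 3.63 CPM at 12-18hpi, and later 919 ± 40.7 CPM at 48-54hpi. Psmb7 was at 28.2 ± 4.7 CPM at 6-12hpi and 10.6 ± 0.223 CPM at 12-18hpi, and Cdk1 at 123 ± 6.46 and 51.4 ± 12.9 CPM. The means of these genes dipped before higher values in later stages. Ube2w was at 566 ± 36.1 CPM at 6-12hpi, 270 ± 23.7 CPM at 12-18hpi and 31.1 ± 2.61 CPM at 90-96hpi, and no later mean reached that of 6-12hpi. The ribosomal gene Rps6 measured 10.4 ± 3.08, 52.7 ± 3.19 and 39.1 ± 6.65 CPM in MII oocytes, at 6-12hpi and at 12-18hpi, and 1477 ± 84.3 CPM at 48-54hpi. Duxf3 was highest at 12-18hpi, at 12.2 ± 2.74 CPM, and Usp17la at 18-24hpi, at 89.8 ± 17.7 CPM. Klf5 reached 455 ± 39 CPM at 90-96hpi.

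**Figure D5:**
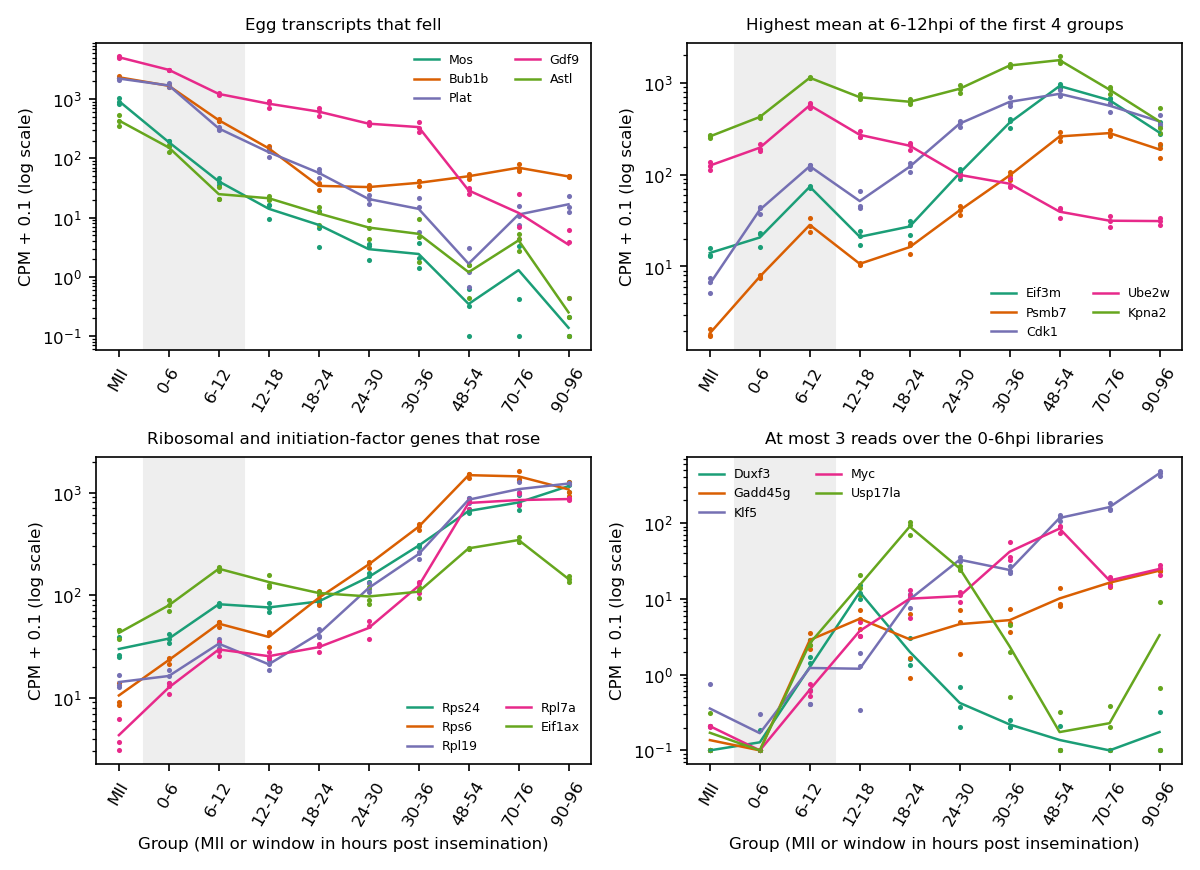
Points are CPM plus 0.1 on a log axis in the 3 libraries of each of the 10 groups, lines join group means, and grey marks the 0-6hpi and 6-12hpi groups. Egg transcripts such as Mos decline over the first 4 groups, Eif3m, Psmb7, Cdk1, Ube2w and Kpna2 have their highest mean of the first 4 groups at 6-12hpi, ribosomal genes are higher again in the cleavage stages, and Duxf3 and Usp17la appear at 6-12hpi and are near 0 at 48-54hpi.

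The changed genes also differed in length, a property the test did not use. The median gene length in the deposited table was 2180 bases for risen, 3383 bases for fallen and 3060 bases for all genes tested. Genes averaging 1 CPM or more were split into 5 equal classes by length, and 12.0% of the shortest class rose, followed by 6.57%, 5.76%, 3.66% and 1.83% of the longest. The share that fell was 2.90% in the shortest and 4.05 to 4.56% in the other classes. Without cytosolic and mitochondrial ribosomal and respiratory genes the share of the shortest class that rose was 10.5%. By level, 8.26% of genes of 10 to 100 CPM rose and 4.53% fell, and of genes above 100 CPM 7.19% rose and 8.13% fell. The part of length in the list counts was not tested. The median length of tested ribosomal protein genes was 1048 bases, of mitochondrial ribosomal genes 1803 bases and of respiratory genes 1170 bases, and in the shortest class 49.2% of the ribosomal protein genes rose, against 12.0% of all genes there.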

How the data were processed

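The authors deposited read counts per gene for 30 libraries of labelled windows, called read counts in the file header. One deposited column, classed as estimated counts for a fraction in the damaged record of Nyx, needed no rounding once that record was left out. The submitters' processing notes name Trim Galore 0.6.10, STAR 2.7.10a, SAMtools 1.12 and build mm10. The counting tool, strand and use of T-to-C reads are not given in the sources used here. Groups and replicate numbers come from sample titles.

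All 30 libraries were fitted with edgeR 4.0.16 (R 4.3.3; filterByExpr, minimum count 10, minimum total 15; TMM; robust quasi-likelihood F-test, two-sided) and adjusted by Benjamini-Hochberg over 16234 genes. The SE is the log2 fold change divided by the square root of F. In simulated counts of this comparison (15862 genes) 54% of 2-fold and 94% of 4-fold changes were recovered and 4 unchanged genes called. The changed genes were drawn only from genes above a minimum mean CPM, so these shares do not apply to genes of few reads. The counts were drawn with each gene's dispersion from the joint fit, the same in every group. They therefore cannot show how many false calls arise where the spread differs between groups. Intervals and limits cover counting error only.

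Named genes were the 15 largest rises and falls by fold (at least 20 CPM in the higher group, no overlap), the 6 most abundant of at least 2-fold in each direction, up to 4 called members of each of 34 lists by smallest adjusted p, and list anchors. For some lists further called members are named without full values, after their values were seen. Members and lists were chosen with earlier results of these data known. A few genes picked by this rule are left out of the text. RefSeq promoters were matched by symbol. DESeq2 1.42.0, Python 3.11.15, pandas 2.3.3 and matplotlib 3.10.9 were used for alternatives, summaries and figures.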

Additional observations from a re-analysis of the deposited data

How the results depend on the processing

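The count of 1243 changed genes (768 up, 475 down) stayed within 1.5 times with DESeq2 (1061 up and 690 down), DESeq2 size factors (760 and 493), total count scaling (831 and 438), no low-count filter (935 and 449), thinning to one depth (810 and 408) and without mitochondrially encoded genes (770 and 475). Replicate numbers did not pair the libraries (deviations of same-numbered libraries correlated at -0.0166, 0.00524 and 0.0376 across genes, and only replicate 3 correlated best with its own number on both sides), and with a replicate block 1177 genes changed, 732 up and 445 down. In a fit of only the groups compared, 3577 genes changed, 1854 up and 1723 down, and 2781 of them also differed in the same direction in 12-18hpi against MII, where the joint fit gave 1115; this fit tested fewer genes and estimated the spread from 6 libraries. By at least 2-fold, 543 genes changed (338 and 205), of which 464 also differed. With each library left out in turn, 739 to 871 genes changed, 398 to 524 rose, 338 to 417 fell and 695 to 1107 also differed in 12-18hpi against MII; fewer samples enter these fits. The 7126 genes that differed in 12-18hpi against MII were 6234 to 6503 in such fits and stayed within 1.5 times under the other alternatives. Rises made up 61.8% of changes in the joint fit, 51.8% in the fit of the groups compared and 52.0 to 60.8% with a library left out. Depth limits what can be said of genes under 1 CPM, of which 1.51% rose and 0.155% fell.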

Other observations

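Of 16234 genes tested, 15442 (95.1%) could be placed on a chromosome by RefSeq (GRCm38.p6). Of 579 on the X chromosome 36 rose (6.22%) and 6 fell (1.04%). On the autosomes the share that rose ran from 3.27% (chromosome 3) to 7.66% (chromosome 12), and the share that fell from 2.32% (chromosome 3) to 4.49% (chromosome 12). The X share of falls was the lowest of all chromosomes, and no test of it was made.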
